A study of Homo sapiens with 6 samples.

Results

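The genes described here are 38 human genes of epithelial cell junctions and cell polarity, read in 2 colorectal cancer cell lines with and without knockdown of TEAD4. They were chosen by name, as the rows of both deposited expression tables that carry a listed gene symbol, and all 38 were found among the 26336 named genes. By role they were 5 genes of the adherens junction and related adhesion, 15 of the tight junction, 8 of the desmosome, 3 of cell polarity, 4 regulators of the epithelial state and 3 genes of apical trafficking or surface proteolysis. Keratins were not among them.

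HCT116 is a line from a primary colon carcinoma and SW620 one from a colon cancer metastasis in a lymph node, and both were grown in DMEM with serum. RNA was sequenced from 3 libraries per line. In each line 1 control library, from cells with the lentiviral hairpin vector pLKO, stood beside 2 libraries from cells with a short hairpin RNA against TEAD4 (shTEAD4). TEAD4 is a DNA-binding transcription factor through which YAP and TAZ, the effectors of Hippo signalling, act on their target genes. The knockdown libraries are numbered 1 and 2 as in the deposited columns. The sources used here do not say whether they came from separate cultures or hairpins, so p-values measure the spread between these libraries, which may be technical. In bulk RNA of this kind, fewer cells of a type and less RNA per cell cannot be told apart.

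Epithelial cells are joined side by side by several kinds of junction. Tight junctions seal the gap between cells with claudins, occludin and related membrane proteins that ZO scaffolds hold in place. Adherens junctions join cells through cadherins tied to actin by catenins, and desmosomes anchor their own cadherins to keratin filaments through plakoglobin, plakophilins and desmoplakin. The Crumbs, PAR and Scribble polarity complexes mark the apical and basolateral faces of the cell, GRHL transcription factors maintain expression of junction genes, and ESRP proteins splice transcripts into their epithelial forms. In the colon these systems form the barrier of the mucosa, and their loss is part of the epithelial-mesenchymal transition, in which ZEB and SNAIL repressors bind E-box sites in junction gene promoters.

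Reads on named genes numbered 15778571 to 18859715 per library. TEAD4 had 355 normalized counts in the HCT116 control against 68.2 and 68.6 in its knockdown libraries, and 1140.4 in the SW620 control against 268 and 234, so the targeted gene was low in all 4 knockdown libraries. HCT116 knockdown library 1 stood apart from its control for many genes: 48.8% of all tested genes were over 1.5-fold from the control there, against 36.5% in HCT116 knockdown library 2 and 22.9% and 28.8% in SW620 knockdown libraries 1 and 2. The simple-epithelium keratins KRT8 and KRT18 were at 57482 to 103400 and at 16485 to 34183 jointly scaled counts over the 6 libraries, and KRT19 at 4819 to 33978. Of the intestinal factors, CDX1 was at 0 in all libraries, and CDX2 at 92.3 to 235 in HCT116 and 84.4 to 384 in SW620. Villin (VIL1) was at 4502 to 5598 in SW620 and at most 2.3 in HCT116. Leukocyte markers summed to 306 to 1287 jointly scaled counts in HCT116, mostly from CD68. In SW620 they summed to 176 to 290, mainly from CD68 at 107 to 144 and LYZ at 55.6 to 115. The defining markers PTPRC, CD3E and CD3D were at 3.4 or less in each library. Fibroblast markers summed to 516 to 1068 in HCT116 and 613 to 988 in SW620, mostly from COL1A1 in HCT116 and LUM in SW620. In SW620, COL1A1 was at 94.8 to 187, PDGFRB at 53.8 to 82.9 and COL1A2 at 0 to 76.8. DCN was at 5.7 or less in each library. Endothelial markers summed to 27.7 to 66.1 in HCT116 and 16.1 to 44.2 in SW620. Most of this was VWF, at 18.5 to 46.8 and 11.4 to 33.3, with PECAM1 and CDH5 at 3.4 or less. The part of these markers in the results was not tested.

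The baseline level of the genes was compared between the lines, 3 HCT116 against 3 SW620 libraries with knockdown as a term in the model, on reads recovered from the tables and brought to 1 scale over the 6 libraries (jointly scaled counts). Most of the 38 genes differed between the lines, and most of those were lower in SW620. By limma with a Benjamini-Hochberg adjusted p under 0.05, 27 of the 38 genes were called (71.1%), against 49.8% of all 18743 tested genes. Of them, 23 were higher in HCT116 (60.5%, against 25.3% of all genes) and 4 were higher in SW620 (10.5%, against 24.5%). The median log2 difference, SW620 minus HCT116, was -0.82 for the 38 genes and 0.01 for all tested genes. All 3 HCT116 libraries lay above all 3 SW620 libraries for the same 23 genes, an order seen for 30.5% of all genes, and 5 genes had the opposite order, against 29.8% of all genes. A called difference of more than 2 log2 units towards HCT116 was found for 11 of the genes (28.9%, against 13.1% of all genes), and one of more than 4 units for 6 of them (15.8%, against 4.44%). Towards SW620 it was CLDN1 alone that passed 2 units (2.63%, against 10.1% of all genes) and 4 units (against 3.25%). The log2 difference was above 0 for 10 of the 38 genes (26.3%, against 50.3% of all genes).

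**Figure D1:**
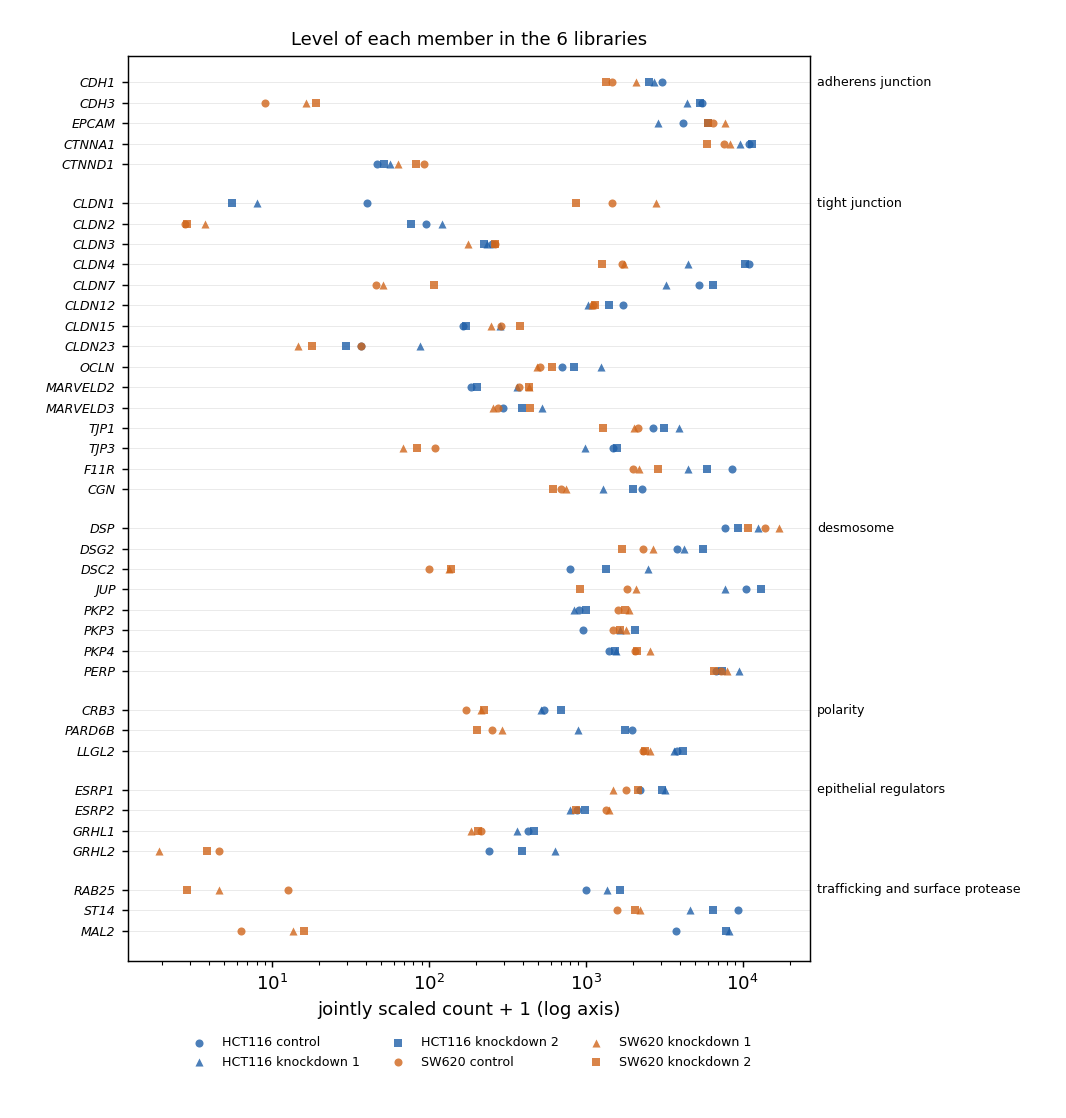
Level of each of the 38 genes in the 6 libraries, as jointly scaled count + 1 on a log axis, grouped by role (circles are controls, triangles and squares knockdown libraries 1 and 2, blue HCT116, orange SW620). CDH3, CLDN2, GRHL2, RAB25 and MAL2 had a mean under 20 counts in SW620, and CLDN1 alone had one under 20 counts in HCT116.

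Some of the calls depended on the setting or on single libraries. Alternatives were other scalings, filters and tests, the controls alone, and leaving out each library. The controls alone are 1 library per line, so the p-values of that fit take their spread from the knockdown libraries. When 1 control is left out, whichever it is, the fitted line difference rests on the same 4 knockdown libraries. Those fits are thus nearly the same comparison and are not separate tests. Of the 27 genes called, 12 were called under all 14 alternatives, among them 11 that were higher in HCT116, and 19 were called whichever of the 6 libraries was left out. With the control of each line alone, 1 gene was called higher in SW620 and 11 higher in HCT116, which were the same 12 genes (CLDN1, and CDH3, CLDN2, CLDN7, TJP3, F11R, DSC2, GRHL2, PARD6B, RAB25, ST14 and MAL2), beside 6.12% and 7.52% of all genes. On the values as deposited, which were normalized separately per line and shift the median line difference of all genes by 0.24 log2 units, 17 genes were called higher in HCT116 and 8 higher in SW620. The 4 genes called higher in SW620 became 2 when either control or SW620 knockdown library 1 was left out. Without HCT116 knockdown library 1, the library that stood apart, 22 were called higher in HCT116 and 5 higher in SW620. Apart from the controls alone, shares of all genes were not taken under these alternatives. These counts thus cannot be set beside a share of all genes.

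To place the differences beside DNA sequence, the 250 bases before the RefSeq start site (GRCh38.p14) were read for the 22 of the 38 genes that the promoter table holds. The E-box CAGGTG, on either strand, was in 7 of the 22 (31.8%): OCLN, TJP1, DSP, DSG2, DSC2, CRB3 and RAB25. It was in 17.5% of all 35116 promoters of that length. Of these 7 genes, 6 were called higher in HCT116 (85.7%) and DSP was not called, and of the 15 genes whose promoter window lacks it 8 were (53.3%), against 25.3% of all genes and 60.5% of the 38. Whether the E-box and the line difference go together was not tested, and the OCLN and TJP1 calls among the 6 are each lost in 4 of the 6 fits that leave out 1 library. A check of the promoter sequences against GENCODE transcripts was not met for TJP1, DSP, DSC2 and CRB3 among the 7. It was also not met for PKP4 and PERP among the 15. The place of these windows beside the start site is thus less certain. The grainyhead-type motif AACNNGTT, which is its own reverse complement, was in 1 of the 22 (CGN) and in 3% of all promoters. The TEAD motif GGAATG, on either strand, was in 0 of the 22 and in 11.9% of all promoters, which says only that these letters are not in this window. The 5 sequences shown are the promoter with most E-box matches (CRB3), the E-box promoter of the gene with the largest difference among the 7 (RAB25), the promoter with the grainyhead-type match (CGN), and those of the claudins that differed most in each direction (CLDN7 and CLDN1), which hold none of these motifs. They lie at chr19:6464021-6464270 (plus strand), chr1:156060910-156061159 (plus strand), chr1:151511137-151511386 (plus strand), chr17:7263214-7263463 (minus strand) and chr3:190322447-190322696 (minus strand), and are written 5′ to 3′ with the last base next to the start site and the motif matches in capitals.
CRB3: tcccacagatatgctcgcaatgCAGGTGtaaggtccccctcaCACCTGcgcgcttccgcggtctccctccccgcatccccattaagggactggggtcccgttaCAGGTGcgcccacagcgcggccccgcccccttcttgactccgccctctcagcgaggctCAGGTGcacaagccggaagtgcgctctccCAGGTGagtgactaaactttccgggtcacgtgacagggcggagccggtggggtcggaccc
RAB25: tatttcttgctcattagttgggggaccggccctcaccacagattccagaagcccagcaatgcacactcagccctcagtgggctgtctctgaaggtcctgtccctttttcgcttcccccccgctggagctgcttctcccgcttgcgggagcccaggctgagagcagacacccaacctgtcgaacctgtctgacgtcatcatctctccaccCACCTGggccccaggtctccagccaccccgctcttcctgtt
CGN: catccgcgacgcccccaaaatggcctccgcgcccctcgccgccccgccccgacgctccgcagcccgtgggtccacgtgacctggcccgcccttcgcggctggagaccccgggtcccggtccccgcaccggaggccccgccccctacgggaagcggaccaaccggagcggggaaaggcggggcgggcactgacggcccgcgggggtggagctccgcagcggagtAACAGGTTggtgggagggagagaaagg
CLDN7: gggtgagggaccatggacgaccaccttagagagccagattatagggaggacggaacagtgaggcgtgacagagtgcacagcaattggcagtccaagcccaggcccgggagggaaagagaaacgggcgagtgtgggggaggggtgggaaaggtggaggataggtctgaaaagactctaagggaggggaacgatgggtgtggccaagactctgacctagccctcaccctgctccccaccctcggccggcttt
CLDN1: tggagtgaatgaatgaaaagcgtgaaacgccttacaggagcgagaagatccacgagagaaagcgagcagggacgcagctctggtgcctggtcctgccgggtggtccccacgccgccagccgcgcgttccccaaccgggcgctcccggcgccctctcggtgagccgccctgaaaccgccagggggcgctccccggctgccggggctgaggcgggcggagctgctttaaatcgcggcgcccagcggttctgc
In CRB3 the 5 E-box matches begin 228, 208, 147, 89 and 60 bases before the start site, the match at 208 on the other strand. In RAB25 the match begins 41 bases before the start and is on the other strand. A match is a description of the letters and not a bound site.

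Among adherens junction genes P-cadherin had the larger difference between the lines and E-cadherin a smaller one. Their genes are neighbours on chromosome 16 (GENCODE annotation of GRCh38, not the authors' build), CDH3 at 68636189 to 68722616 and CDH1 at 68737225 to 68835548, both on the plus strand. CDH3, P-cadherin, stood at 5490.1, 4390 and 5315 jointly scaled counts in HCT116 (control, then knockdown libraries 1 and 2, the order used throughout), while SW620 had 8.1, 15.5 and 18.0. The lines were fully apart, with a log2 difference of -8.47 ± 0.30 (SE; limma adjusted p = 5.5e-06). In reads this was 13799 against 45, a ratio of 365 after scaling (95% counting interval 273 to 501; counting intervals here cover counting error only). CDH1, E-cadherin, stood at 3082, 2735 and 2533 in HCT116 and at 1464, 2085 and 1342 in SW620. Its HCT116 libraries also lay above all SW620 libraries, but by less (-0.79 ± 0.22, adjusted p = 0.0182). The call of CDH1 was lost without SW620 knockdown library 2 (adjusted p = 0.0895) or without a control. The fits without the HCT116 control (adjusted p = 0.14) and the SW620 control (0.139) compare the same knockdown libraries.

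EPCAM, the epithelial cell adhesion molecule used as a surface marker of carcinoma cells, stood at 4199, 2892 and 6036 in HCT116 and at 6446, 7701 and 6017 in SW620. The lines overlapped, and the difference did not pass (0.68 ± 0.28, adjusted p = 0.0778). It passed without HCT116 knockdown library 2 (0.97, adjusted p = 0.0153) and on the values as deposited (0.93, adjusted p = 0.0284). CTNNA1, alpha-catenin, which links cadherin complexes to actin, stood at 11040, 9600.1 and 11421 in HCT116 and at 7639, 8344 and 5973 in SW620. This small difference (-0.56 ± 0.19, adjusted p = 0.0449) was called in 4 of the 14 alternatives, and was lost without any 1 library other than HCT116 knockdown library 1 (adjusted p up to 0.191). CTNND1, p120-catenin, was low in every library, at 46.2 to 55.9 in HCT116 and 62.9 to 91.9 in SW620, and its difference did not pass (0.61 ± 0.35, adjusted p = 0.182). The tables list a readthrough gene that shares exons with CTNND1 at 0 in all libraries, and how reads on shared exons were counted is not given in the sources used here, so this level is uncertain.

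Claudins, which line the paracellular seal, differed in both directions and gave the greatest contrasts of the tight junction. CLDN7 stood at 5263, 3240 and 6490 jointly scaled counts in HCT116 and at 45.1, 50.1 and 107 in SW620 (log2 difference -6.24 ± 0.39, limma adjusted p = 2.4e-05). CLDN1 had the opposite pattern, at 39.4, 7.1 and 4.6 in HCT116 and 1465, 2803 and 865 in SW620 (6.96 ± 0.64, adjusted p = 0.000124). For both genes the libraries of the lines did not overlap, in opposite order. In reads CLDN1 had 46 in HCT116 and 5614 in SW620, a ratio of 102 towards SW620 (95% counting interval 76.7 to 140).

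CLDN2, which forms a cation-permeable pore, stood at 94.6, 120 and 76.2 in HCT116 and at 1.8, 2.7 and 1.9 in SW620, 268 against 7 reads (-4.95 ± 0.46, adjusted p = 0.000127). Its HCT116 libraries all lay above the SW620 ones, at a low level in both lines. CLDN4 stood at 10905, 4474 and 10410 in HCT116 and at 1712, 1745 and 1279 in SW620 (-2.35 ± 0.32, adjusted p = 0.000763). CLDN4 was called whichever library was left out, with adjusted p up to 0.0249, and missed the threshold with the controls alone (-2.67, adjusted p = 0.0556). CLDN3, at 224 to 251 in HCT116 and 177 to 264 in SW620, overlapped between the lines. CLDN12, CLDN15 and CLDN23 did not pass either, with log2 differences of -0.28 ± 0.21, 0.58 ± 0.30 and -1.11 ± 0.58.

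Of the tight junction scaffolds, ZO-3 differed far more than ZO-1. TJP3, ZO-3, stood at 1492, 992 and 1590 in HCT116 and at 108, 67.5 and 83.4 in SW620 (-3.96 ± 0.26, adjusted p = 3.1e-05). TJP1, ZO-1, stood at 2668, 3932 and 3161 in HCT116 and at 2146, 2038 and 1292 in SW620 (-0.85 ± 0.26, adjusted p = 0.0262). The TJP1 call was lost without any 1 of the 4 knockdown libraries (adjusted p = 0.0689 and 0.0637 without HCT116 libraries 1 and 2, 0.0592 and 0.100 without SW620 libraries 1 and 2). CGN, cingulin, which ties ZO proteins to actomyosin, was lower in SW620 (-1.40 ± 0.23, adjusted p = 0.00197). F11R, the junctional adhesion molecule JAM-A, was also lower there, at 8534, 4508 and 5946 in HCT116 and 2012, 2196 and 2872 in SW620 (-1.39 ± 0.26, adjusted p = 0.00347).

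The MARVEL-domain proteins of the tight junction differed by under 1 log2 unit, in both directions. OCLN, occludin, stood at 705, 1254 and 846 in HCT116 and at 514, 492 and 610 in SW620 (-0.76 ± 0.23, adjusted p = 0.0292). Its call was lost without SW620 knockdown library 1 (adjusted p = 0.137), SW620 knockdown library 2 (0.0795) or a control. The fits without the HCT116 control (adjusted p = 0.0770) and the SW620 control (0.0751) compare the same knockdown libraries. MARVELD2, tricellulin, which seals the corners where 3 cells meet, was higher in SW620, at 374 to 436 against 186 to 363 (0.79 ± 0.28, adjusted p = 0.0464). MARVELD2 was called in 6 of the 14 alternatives and lost without any 1 library other than HCT116 knockdown library 1 (adjusted p up to 0.219). MARVELD3 did not pass (-0.34 ± 0.28, adjusted p = 0.345).

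The desmosome genes differed in both directions. DSC2, desmocollin-2, the cadherin of the desmosome core, stood at 797, 2513 and 1352 in HCT116 and at 100, 134 and 138 in SW620 (-3.49 ± 0.30, adjusted p = 9.1e-05). JUP, plakoglobin, which binds desmosomal cadherins inside the cell, stood at 10434, 7761 and 13059 in HCT116 and at 1833, 2101 and 914 in SW620 (-2.74 ± 0.34, adjusted p = 0.000465), and missed the threshold with the controls alone (-2.51, adjusted p = 0.0732). DSG2, desmoglein-2, was lower in SW620 too (-1.03 ± 0.24, adjusted p = 0.00823). The plakophilins PKP2 (0.93 ± 0.17, adjusted p = 0.00333) and PKP4 (0.58 ± 0.17, adjusted p = 0.0223) were higher in SW620.

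DSP, desmoplakin, the link to keratin filaments, stood at 7745, 12605 and 9397 in HCT116 and at 13897, 17089 and 10765 in SW620. The lines overlapped and the difference did not pass (0.49 ± 0.25, adjusted p = 0.131), while it passed on the values as deposited (0.75, adjusted p = 0.0367). PKP3, the other plakophilin of the 38 genes, and PERP, a tetraspan protein of the desmosome, overlapped between the lines as well (0.15 ± 0.21 and -0.11 ± 0.19). The call of PKP4 was lost without either control or without SW620 knockdown library 1 (adjusted p up to 0.119). Over the 8 desmosome genes 3 were called higher in HCT116 (37.5%, against 25.3% of all genes) and 2 higher in SW620 (25%, against 24.5%), with a median of 0.02.

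All 3 polarity genes were called higher in HCT116 (100%, against 25.3% of all genes). With the controls alone, only PARD6B was (33.3%, against 7.52% of all genes). PARD6B, the PAR6 scaffold of the apical PAR complex, stood at 1964, 891 and 1784 in HCT116 and at 253, 294 and 201 in SW620 (-2.56 ± 0.31, adjusted p = 0.000457). CRB3, the Crumbs protein of the apical membrane whose promoter is printed above, stood at 544, 521 and 697 in HCT116 and at 172, 215 and 226 in SW620 (-1.52 ± 0.23, adjusted p = 0.00116). LLGL2, the basolateral Lgl protein, differed least (-0.68 ± 0.16, adjusted p = 0.00992), and its call was lost without either control or either SW620 knockdown library (adjusted p up to 0.0668). For all 3 the HCT116 libraries lay above all SW620 libraries, an order seen for 30.5% of all genes.

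Among the regulators the grainyhead factor GRHL2 had few reads in SW620. GRHL2 stood at 240, 634 and 390 in HCT116 and at 3.6, 0.91 and 2.8 in SW620 (-6.92 ± 0.55, adjusted p = 6.4e-05). These were 1175 against 8 reads, a ratio of 175 (95% counting interval 88.5 to 406). GRHL1, another family member, differed less, at 428, 367 and 471 in HCT116 and 215, 184 and 206 in SW620 (-1.06 ± 0.23, adjusted p = 0.00675). The splicing regulators were abundant in both lines: ESRP1 was at 2217 to 3225 in HCT116 and 1502 to 2168 in SW620, and ESRP2 at 791 to 989 and 870 to 1407. The ESRP1 difference (-0.63 ± 0.21, adjusted p = 0.0385) was lost without any 1 of the 6 libraries (adjusted p from 0.0691 to 0.189), and that of ESRP2 did not pass (0.42 ± 0.24, adjusted p = 0.169).

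The trafficking genes held the largest difference of the 38. MAL2, a membrane protein of apical transcytosis, stood at 3777, 8167 and 7782 in HCT116 and at 5.4, 12.8 and 15.2 in SW620 (-9.11 ± 0.23, adjusted p = 2.6e-06). In reads this was 18130 against 36, a ratio of 599.9 (95% counting interval 433 to 857). RAB25, a small GTPase of apical recycling, stood at 1006, 1368 and 1643 in HCT116 and at 11.7, 3.6 and 1.9 in SW620 (-7.89 ± 0.52, adjusted p = 3.2e-05), 3663 against 19 reads. ST14, the transmembrane serine protease matriptase, stood at 9392, 4602 and 6511 in HCT116 and at 1580, 2220 and 2062 in SW620 (-1.76 ± 0.28, adjusted p = 0.00154). In SW620, ST14 was thus at 1580 or more counts in each library, MAL2 and RAB25 at 15.2 or less.

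**Figure D2:**
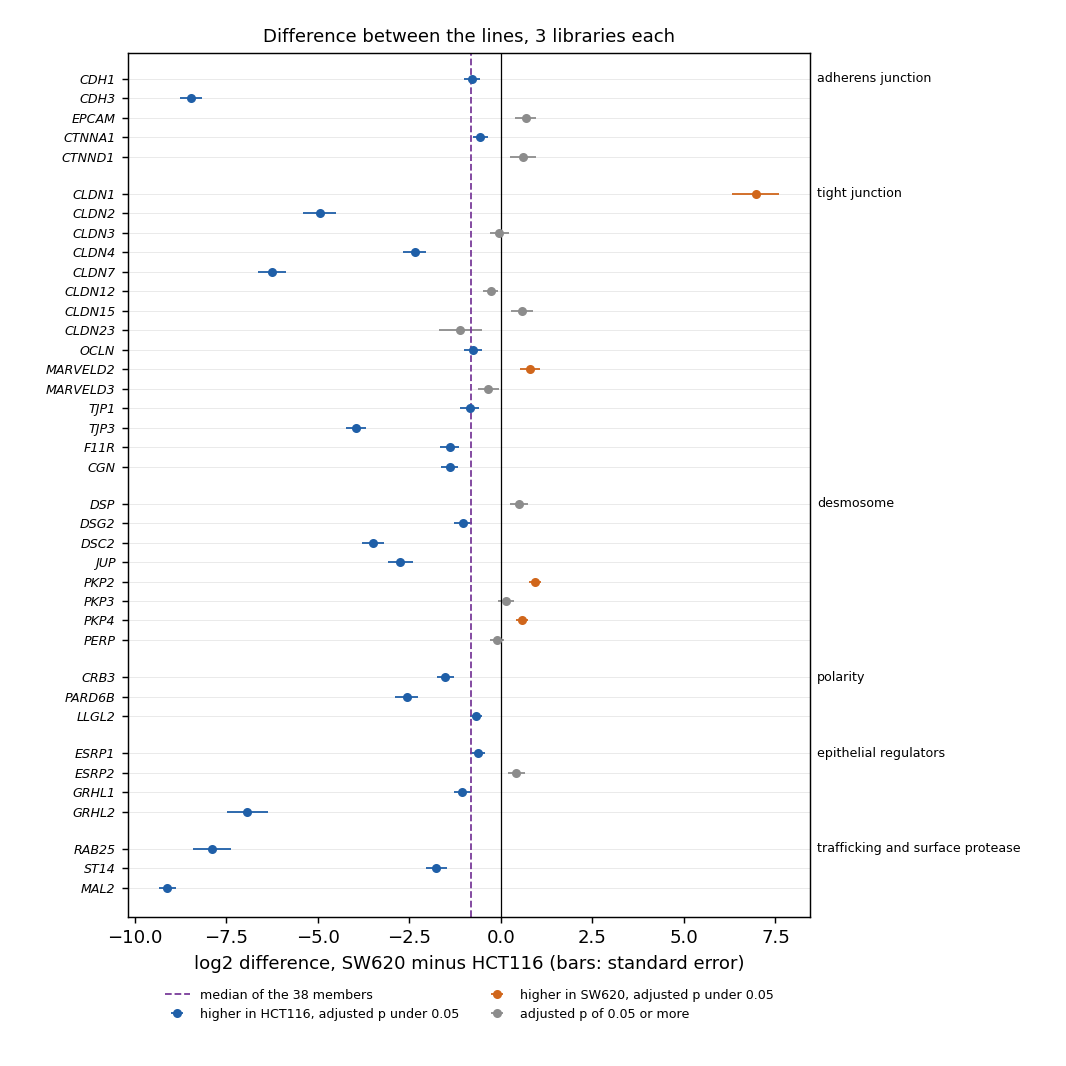
Fitted log2 difference of each gene between the lines, SW620 minus HCT116, with its standard error, on 3 libraries per line (blue, called higher in HCT116; orange, called higher in SW620; grey, not called; dashed line, median of the 38 genes at -0.82). The values run from -9.11 for MAL2 to 6.96 for CLDN1.

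Divided by the length of the exons in the annotation, the order of the genes described here within each control library differed between the lines. In HCT116 the genes with most jointly scaled counts per kilobase were CTNNA1 (2818), JUP (2816), ST14 (2654), CLDN4 (2599) and CLDN7 (2550). In SW620 they were EPCAM (3207), CTNNA1 (1950), PERP (1698), DSP (1419) and LLGL2 (595). CLDN7 was at 21.8 per kilobase in SW620, where CLDN1 (421) and CLDN4 (408) had most among the claudins in this order. Claudins of the other lists, such as CLDN11, were not part of it. E-cadherin was in the middle of the order in both, at 620 and 294 per kilobase. These orders rest on 1 library per line and are a description.

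Other genes of the same systems gave the level at which the 38 can be read. Over 71 further junction, polarity and epithelial genes, of which 66 were tested, 30 were called higher in HCT116 (45.5%, against 25.3% of all genes) and 14 higher in SW620 (21.2%, against 24.5%), with a median log2 difference of -0.67. In the list of other epithelial programme genes, 9 of 12 were called higher in HCT116 (75%) and 2 higher in SW620 (16.7%), with a median of -3.19. PRSS8, the membrane protease prostasin, stood at 1976, 763 and 2701 in HCT116 and at 0.90, 1.8 and 0.95 in SW620 (-9.51 ± 0.53, limma adjusted p = 1.9e-05). AP1M2, an adaptor subunit of basolateral sorting, stood at 1500, 1675 and 2138 against 24.3, 13.7 and 12.3 (-6.68 ± 0.33, adjusted p = 1.4e-05). The transcription factors GRHL3 (-5.40 ± 0.40), OVOL1 (-7.10 ± 0.43) and ELF3 (-2.33 ± 0.33) were higher in HCT116, and EHF (2.23 ± 0.49) and OVOL2 (1.91 ± 0.48) were higher in SW620. KLF5 did not pass (0.52 ± 0.24).

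Further claudins and scaffolds were called in both directions. CLDN11, known from myelin and testis, stood at 1.1, 2.0 and 2.3 in HCT116 and at 4572, 3034 and 2532 in SW620 (10.21 ± 0.37, adjusted p = 5.5e-06). Of the 8 other claudins tested 2 were called higher in SW620 (25%, against 24.5% of all genes) and 3 higher in HCT116 (37.5%, against 25.3%). Among other tight junction genes, CGNL1, paracingulin (3.55 ± 0.27), was higher in SW620, where its relative CGN was lower. LSR, the lipolysis-stimulated receptor of tricellular junctions, was higher in HCT116 (-2.01 ± 0.18), and over these 14 genes 4 were called higher in HCT116 (28.6%) and 3 higher in SW620 (21.4%), both close to the shares of all genes. DSC3, desmocollin-3, was higher in HCT116 (-5.21 ± 0.38, adjusted p = 4.6e-05), while the desmosomal cadherin DSG1, named after its values were seen, was at few counts and higher in SW620, at 1.1, 4.1 and 1.2 in HCT116 and 10.8, 9.1 and 11.4 in SW620 (1.998 ± 0.557, adjusted p = 0.0193, and 0.0884 with DESeq2). Of 8 other desmosome genes 4 were called higher in HCT116 (50%, against 25.3% of all genes) and 2 higher in SW620 (25%, against 24.5%).

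For other adherens junction genes 4 of the 10 tested were called higher in HCT116 (40%, against 25.3% of all genes), led by ARVCF, a p120-catenin relative (-2.42 ± 0.20), and CTNNAL1 (-1.68 ± 0.30), and 2 higher in SW620 (20%, against 24.5%), PLEKHA7 (1.33 ± 0.22) and CDH17, the liver-intestine cadherin (3.12 ± 0.54). Of 14 other polarity genes 6 were called higher in HCT116 (42.9%, against 25.3% of all genes) and 3 higher in SW620 (21.4%, against 24.5%). LLGL1 (-1.36 ± 0.18) and PARD6G (-1.77 ± 0.26) were among the former and CRB2 (2.58 ± 0.49) among the latter. Of the repressors of junction genes in epithelial-mesenchymal transition, ZEB1 was higher in SW620, at 369, 314 and 303 against 196, 132 and 68.1 in HCT116 (1.43 ± 0.33, adjusted p = 0.00933). SNAI1, snail, was lower there, at 187, 174 and 206 against 1111, 365 and 979 (-1.96 ± 0.39, adjusted p = 0.00467), and TWIST1 was at 0 in all SW620 libraries and at 35.8 to 39.4 in HCT116 (adjusted p = 0.000112). ZEB2 and SNAI2 did not pass, so the repressors did not differ in 1 direction.

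**Figure D3:**
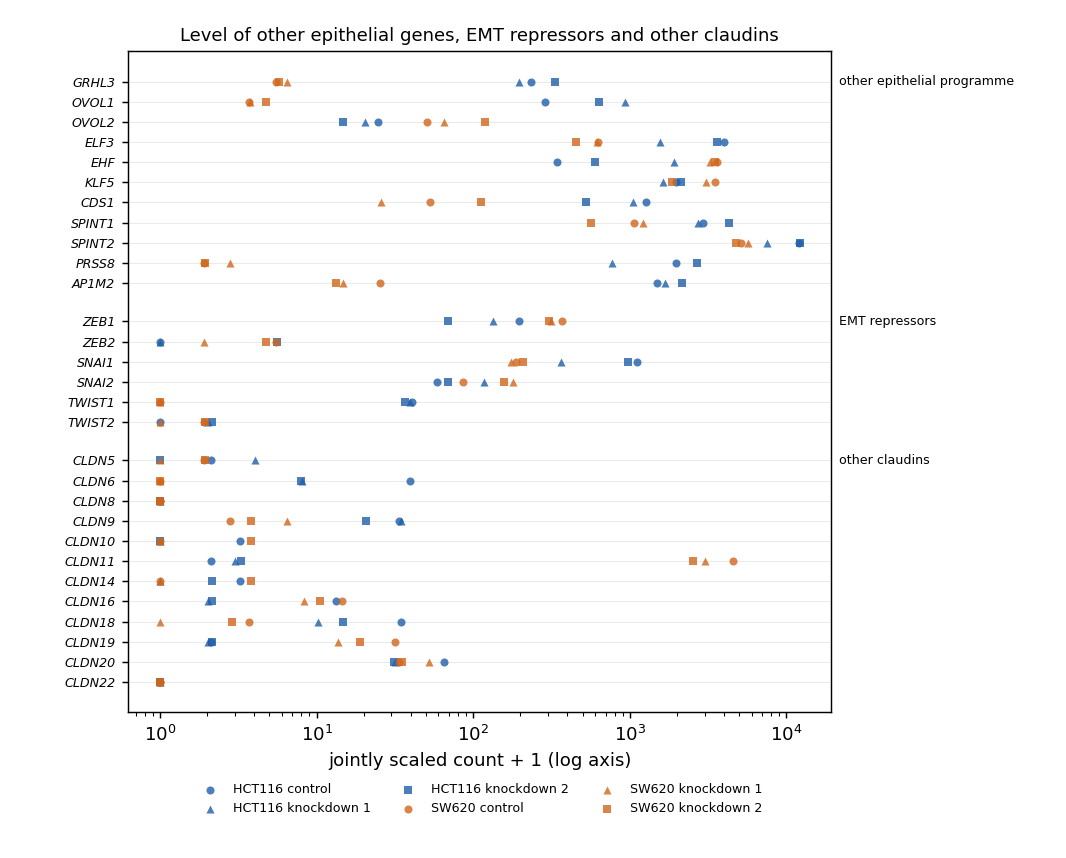
Level of other epithelial programme genes, repressors of junction genes and other claudins in the 6 libraries, as jointly scaled count + 1 on a log axis, with symbols as for the 38 genes. PRSS8 lies at 1.8 counts or less in SW620, and CLDN11 and EHF lie higher in SW620.

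The knockdown comparison asked whether the genes depend on TEAD4. On the deposited normalized counts, 0 of the 38 genes passed limma's adjusted threshold in both lines together, in HCT116, in SW620 or for the difference between the lines, where percent called over all 18743 genes was 0 in each. The smallest adjusted p among the 38 was 0.935 in both lines together, 0.828 in HCT116, 1 in SW620 and 0.9996 for the difference. The quasi-likelihood test of edgeR called 0 of the 38 genes and 0% of all genes in each comparison. DESeq2 called 0 of the 38 in each (36 had an adjusted p in HCT116). Of the genes that it gave an adjusted p, it called 0.0947% of 15836 in both lines together and 0.156% of 12202 in HCT116. Of 18743 genes it called 0.0373% in SW620 and 0.00534% for the difference. TEAD4 itself did not pass with limma (log2 fold change -2.27 ± 0.25 in both lines, adjusted p = 0.356) or edgeR (adjusted p = 0.118), and it passed with DESeq2 (adjusted p = 2.2e-14 in both lines, 0.00459 in HCT116 and 0.0469 in SW620), so limma's count does not show that changes were absent. The median log2 fold change of the 38 genes was 0.06 in both lines, 0.04 in HCT116 and 0.04 in SW620, with medians of all genes of -0.01, 0 and 0. It was above 0 for 21 of the 38 genes in both lines together (55.3%, against 48.6% of all genes), for 23 in HCT116 (60.5%, against 47.8%) and for 20 in SW620 (52.6%, against 47.4%).

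At an unadjusted limma p under 0.05, 3 of the 38 genes stood out in both lines together (7.89%, against 4.43% of all genes), all with a positive fold change (against 1.73% of all genes in that direction). MAL2 had 3411 normalized counts in the HCT116 control against 7311 and 7227 with knockdown, and 5.9 in the SW620 control against 13.8 and 16.4. All 4 knockdown libraries lay above their control (1.16 ± 0.24, unadjusted p = 0.00138, limma adjusted p = 0.935), though the SW620 values rest on 36 reads in all. The alternatives other than edgeR and DESeq2 gave a MAL2 fold change between 0.91 and 1.23, with adjusted p from 0.72 to 1. With edgeR it was 1.14 (unadjusted p = 0.00114, adjusted p = 0.979), and with DESeq2 it was 1.11 (unadjusted p = 0.000285, adjusted p = 0.133).

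DSC2 stood at 720, 2249 and 1256 normalized counts in HCT116 and at 108, 145 and 149.7 in SW620 (0.83 ± 0.31, unadjusted p = 0.0289, limma adjusted p = 0.935). PKP3 stood at 868, 1482 and 1906 in HCT116 and at 1616, 1967 and 1782 in SW620 (0.58 ± 0.23, unadjusted p = 0.0382, limma adjusted p = 0.935). For both, the knockdown libraries lay above the control in each line, with larger ratios in HCT116. MARVELD2 and PKP4 were the other genes with all 4 knockdown libraries above their control, which makes 5 of the 38 (13.2%, against 12.1% of all genes). Of the 38, 0 had all 4 below, against 11.6% of all genes. The next genes by p were CLDN1 (-1.23 ± 0.67) and MARVELD3 (0.45 ± 0.29). Without the HCT116 control the CLDN1 value was 0.09, which is its value within SW620.

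In HCT116 alone, 4 of the 38 genes had an unadjusted p under 0.05 (10.5%, against 5.53% of all genes). These were MAL2 (1.09 ± 0.33), DSC2 (1.22 ± 0.44), PKP3 (0.95 ± 0.28) and CLDN1 (-2.55 ± 0.78), each with a limma adjusted p of 0.828. The 3 with a positive value compare with 2.87% of all genes in that direction. By size, 5 of the 38 had both knockdown libraries over 1.5-fold from the control on the same side (13.2%, against 18.7% of all genes), which were those 4 and GRHL2. Of them 4 lay above (10.5%, against 7.45%) and 1 below (2.63%, against 11.2%), and 2 passed 2-fold (5.26%, against 8.47%). GRHL2 had 217 in the control against 568 and 362 with knockdown (1.06 ± 0.73, limma adjusted p = 0.834). CLDN1 had 35.6 in the control against 6.4 and 4.3, from 46 reads in the 3 libraries. ST14 had 8482 in the control against 4120 and 6046 (-0.76 ± 0.32, adjusted p = 0.828).

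The HCT116 knockdown libraries did not move the tight junction genes alike. Both libraries lay above the control for 16 of the 38 genes (42.1%, against 29.7% of all genes), both below for 10 (26.3%, against 31.4%) and on opposite sides for 12 (31.6%, against 35.2%). In library 1, 80% of the 15 tight junction genes were over 1.5-fold from the control, 5 above and 7 below, and in library 2 it was 6.67%. CLDN4 stood at 9848 in the control, 4006 in library 1 and 9667 in library 2, and CLDN23 at 32.5, 78.3 and 26.8. Over all 38 genes, 50% were past 1.5-fold in library 1 and 18.4% in library 2, where all genes gave 48.8% and 36.5%. Of the 8 desmosome genes, 7 had a positive log2 fold change in HCT116 (87.5%, against 47.8% of all genes), with a median of 0.34. In SW620, 4 of these genes had one (50%, against 47.4% of all genes), with a median of 0.08.

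In SW620 alone, the genes with an unadjusted p under 0.05 were all among those with few reads there. They were 3 of the 38 (7.89%, against 1.45% of all genes): MAL2 (1.23 ± 0.33), RAB25 (-1.82 ± 0.53) and CDH3 (0.96 ± 0.35), each with a limma adjusted p of 1. RAB25 had 12.7 normalized counts in the control against 4.0 and 2.1 with knockdown. CDH3 had 8.8 in the control against 16.8 and 19.5. By size, 4 of the 38 had both knockdown libraries over 1.5-fold from the control on the same side (10.5%, against 11.1% of all genes), these 3 and CLDN23, at 39.1, 14.8 and 18.5. Of them 2 lay above (against 4.41% of all genes) and 2 below (against 6.7%). Regardless of size, both libraries lay above the control for 13 of the 38 genes (34.2%, against 31.1% of all genes) and below for 7 (18.4%, against 29.9%). DSP, abundant in this line, stood at 15057, 18531 and 11646 (-0.04 ± 0.40). CLDN1 stood at 1588 in the control, 3039 in library 1 and 936 in library 2, on opposite sides of the control, as 18 of the 38 genes did in SW620 (47.4%, against 33.7% of all genes).

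**Figure D4:**
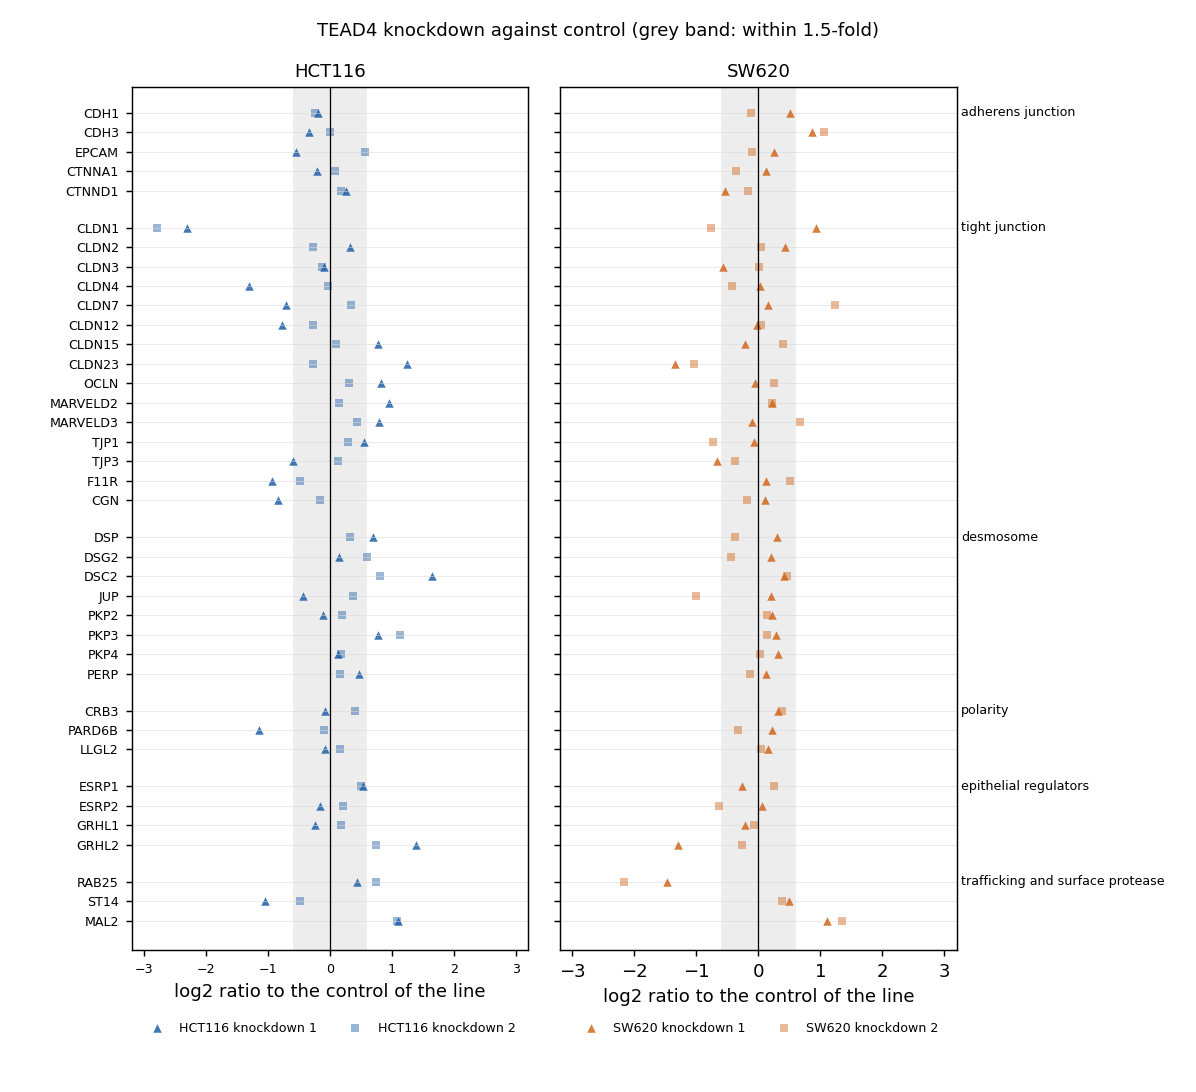
Log2 ratio of each knockdown library to the control of its line, on normalized counts + 1, for the 38 genes in HCT116 (left) and SW620 (right), with knockdown libraries 1 and 2 as triangles and squares and the range within 1.5-fold in grey. MAL2 lies above 1 in all 4 knockdown libraries, and 5 genes in HCT116 and 4 in SW620 lie outside the grey band on the same side in both libraries.

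Of the defining junction genes of the list 0 passed the test. CDH1 stood at 2784, 2449 and 2353 normalized counts in HCT116 and at 1587, 2261 and 1452 in SW620 (-0.01 ± 0.23 in both lines, limma adjusted p = 0.997). EPCAM stood at 3792, 2589 and 5606 in HCT116 and at 6984, 8350.2 and 6509 in SW620 (0.04 ± 0.31, adjusted p = 0.986). In both genes the knockdown libraries lay on different sides of the control in at least 1 line. TJP1 was at 0.01 ± 0.27, OCLN at 0.33 ± 0.25, DSP at 0.23 ± 0.27, JUP at -0.22 ± 0.36 and CTNNA1 at -0.09 ± 0.22. By their standard errors these estimates leave room for changes in either direction, since the median standard error of the 38 genes was 0.28 in both lines and 0.39 within a line.

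The difference of the knockdown effect between the lines passed for 0 of the 38 genes, and 2 had an unadjusted p under 0.05 (5.26%, against 2.26% of all genes). RAB25 was at -2.40 ± 0.76 (SW620 minus HCT116, limma adjusted p = 0.9996), with its HCT116 values at 909, 1225 and 1526 and its SW620 values at 12.7, 4.0 and 2.1. ST14 was at 1.20 ± 0.46, with 8482, 4120 and 6046 in HCT116 and 1712, 2407 and 2230.3 in SW620. The next genes by p were CLDN1 (2.64 ± 1.11), CDH3 (1.14 ± 0.50) and F11R (1.03 ± 0.47). Of the 66 other tested junction, polarity and epithelial genes, 0 passed for knockdown in both lines and 4 had an unadjusted p under 0.05 (6.06%, against 4.43% of all genes). Among these were MARVELD1, a MARVEL-domain protein, at 191, 630 and 465 in HCT116 and 335, 414 and 491 in SW620 (0.96 ± 0.30, limma adjusted p = 0.935), and ARVCF (-0.50 ± 0.21); the others, CLDN16 and CTNND2, had few reads.

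In the authors' deposited table, the log2 fold changes of the 38 genes ran from -0.705 to 0.869 in HCT116 and from -0.226 to 0.299 in SW620, and 0 of the 38 had an adjusted p under 0.05. In SW620, CDH3, CLDN2, GRHL2, RAB25 and MAL2 had no adjusted p there, so they could not pass. In SW620 the deposited fold change was 0.0717 for MAL2 and -1.31 for TEAD4, where limma gave 1.23 and -2.18. The deposited ranges are thus not to be set beside the limma values by size. Over all named genes, adjusted p under 0.05 was given there for 6 genes in HCT116 and 3 in SW620.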

How the data were processed

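RNA was read in 6 libraries, 1 pLKO control and 2 shTEAD4 knockdown libraries each of HCT116 and SW620, made from Trizol-extracted total RNA with a TruSeq RNA kit, per the labels' protocols. That kit keeps no strand, so reads from overlapping genes on opposite strands cannot be told apart: CLDN2, CLDN7, DSG2, ESRP2 and CRB3 overlap opposite-strand genes of the tables. Bowtie 0.12.2 and the build hg18 stand in the submitters' processing notes without a role. Which counter and which gene models were used is not given in the sources used here. The signal that the authors deposited is a normalized count: reads of a gene over the library's size factor, set within each line's table. Undoing the scaling gave whole numbers of reads (tolerance 1e-06) for 100% of values. Per the file headers, the authors also deposited log2 fold changes, a score (their test statistic), p-values and adjusted p-values. Features with date-like names (28 of 26364, at most 0.262% of reads) were left out.

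Knockdown was tested with limma 3.58.1 (R 4.3.3; trend, two-sided) on log2(normalized count + 1), for the 18743 genes whose mean normalized count was 1 or more, all 38 genes among them. Such fold changes understate the change of low genes. The model of both lines had a line term and a knockdown term (3 residual degrees of freedom), and each line and the difference came from a model of 4 groups (2 residual degrees of freedom), in which the spread is shared between lines because each has 1 control. The lines were compared on recovered reads scaled together with TMM factors and log2(count + 1). The controls alone were compared on these values in the model of 4 groups, so that the spread came from the knockdown libraries. The design had named edgeR for raw counts, and limma was used since the tables hold normalized values. edgeR 4.0.16 and DESeq2 1.42.0 on the recovered reads, other pseudocounts, filters and scalings, and leaving out each library were alternatives. The scripts were tested on simulated data. The 2 knockdown libraries of a line had a chi-square of counts of 102 (HCT116) and 28.9 (SW620) per degree of freedom, more than sampling noise gives, so none was counted as a duplicate. Gene lengths and overlaps are from GENCODE (GRCh38), and promoters from RefSeq (GRCh38.p14).

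The 38 genes, the 11 lists of other genes and the tests were chosen with earlier results of these data known. Genes named in full were a set of defining members, the 5 with the smallest p in each knockdown comparison, the 12 with the smallest p between lines, those past 1.5-fold in both knockdown libraries, and up to 3 genes per other list and comparison. Further genes were named after their values were seen. Some genes of these lists are counted in them but are not reported here by name or plotted.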

Additional observations from a re-analysis of the deposited data

Results flagged for a closer look

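For 7 of the 38 genes both knockdown libraries of HCT116 moved to one side of the control and both of SW620 to the other (18.4%, against 13.8% of all tested genes). Each difference of the knockdown log2 fold change, SW620 minus HCT116, was tested in the model of 4 groups with limma, and each had an adjusted p of 0.9996. It was 1.14 for CDH3, 1.03 for F11R and 1.20 for ST14, with HCT116 knockdown below and SW620 knockdown above the control. It was -0.82 for TJP1, -1.85 for GRHL2, -0.57 for CTNND1 and -2.40 for RAB25, with the opposite directions. The SW620 values of CDH3, GRHL2 and RAB25 rest on 45, 8 and 19 reads over its 3 libraries.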

How the results depend on the processing

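No member passed for knockdown under limma in any alternative that gave a value. The genes called higher in HCT116 (23) were 11 with the controls alone and 17 to 22 with 1 library left out. Those called higher in SW620 (4) were 8 on the values as deposited, 1 with the controls alone and 2 to 5 with 1 library left out. Except with the controls alone, shares of all genes were not taken for these counts. The median line difference (-0.82) was -0.57 on the values as deposited, -0.68 with the controls alone and -0.98 to -0.71 with 1 library left out; in 0 alternatives did it change sign. Past 1.5-fold in both HCT116 knockdown libraries were 5 genes, and 2 at 2-fold. For CLDN1 the knockdown value in both lines (-1.23) ran from -2.55 to 0.0876 with 1 library left out and reversed without the HCT116 control. A fit without the control of 1 line takes the knockdown value from the other line. These ends are thus the CLDN1 values within HCT116 (-2.55) and within SW620 (0.0876). The cause of the other changes was not tested. With 1 library left out, the median knockdown value ran from 0.02 to 0.09 in both lines, from -0.07 to 0.17 in HCT116 and from -0.03 to 0.14 in SW620. Over single genes and all comparisons, 449 of 482 alternative values had the direction and the side of the threshold first reported, 29 lost a call and 3 gained one.

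No paired analysis was possible because the columns carry no letter that ties a knockdown library to a replicate of the labels, and control and knockdown groups share fewer than 2 replicate numbers. With 1 control per line, each knockdown value rests on that library. Genes with under 20 counts in a line are limited by depth, so their fold changes are uncertain in size.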
